A study of Gallus gallus with 12 samples.

Results

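RNA levels after 48 h of contact with Eimeria were compared with those after 4 h in HTC cells, a chicken macrophage cell line. The comparison covered the 2238 named genes with a value on all 12 arrays, out of 2253 named genes on the array. Members were chosen by completeness of the data and not by their change. The study hybridised 12 two-channel cDNA arrays, 4 for each of Eimeria tenella, Eimeria maxima and Eimeria acervulina, protozoa that live inside gut cells of poultry and cause coccidiosis. The groups were unstimulated HTC cells and HTC cells stimulated with 1 of the 3 species for 4, 18 or 48 h, with 1 RNA sample per species and time of stimulation. Whether the unstimulated RNA of the 3 loops was 1 sample or 3 is not given in the labels. The fit took it as 3 samples, and their spread enters the fitted standard errors behind the p-values. All groups came from the same cell line, and no other allele or agent is named in the labels. The labels give neither the parasite stage nor the dose, and no unstimulated culture of the same age is named beside the 4 h and 48 h samples, so effects of the parasite and of hours in culture cannot be told apart. They also do not say whether the cultures of the 3 species were started separately, so p-values below measure only the spread between these samples.

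Each array compared 2 RNA samples of one species, and the 4 arrays of a species closed a loop from unstimulated over 4 and 18 to 48 h. Levels were solved from each loop by least squares. They are given as log2 relative to the mean of the 4 RNA samples of that loop, so they compare times within a gene and not genes with each other. No array joined 2 species, so each loop has its own zero and differences in mean level between species are not seen. Levels of different species, also where they are said not to overlap, are each relative to their own loop. The 4 h and 48 h samples were never on the same array. Their difference is the mean of a path of 2 arrays over the 18 h sample and a path of 2 arrays over the unstimulated sample, in which the level of the unstimulated RNA and a constant dye effect cancel, but the errors of 4 arrays remain. The deposited ratios were read as Alexa555 over Alexa647. That direction is likely only. It rests on the order of the 2 samples in all 12 titles, where the Alexa555 sample stands first, and it was kept with earlier results of these data known, which makes it weak. If the ratio ran the other way, each sign given here would turn and higher and lower would swap, while sizes, total counts and tests would stay.

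Macrophages that meet a microbe or parasite pass through an early phase, in which receptors and signalling proteins switch on genes for chemokines, cytokines and other secreted proteins. In a later phase many of these genes return towards their resting level, and genes for metabolism, feedback on signalling and repair can change. Chemokines attract other leukocytes, chaperones of the endoplasmic reticulum fold the secreted proteins, and the actin cytoskeleton drives uptake and movement.

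The genes with the largest falls from 4 to 48 h were SPP1, LOC417536 and OSMR. SPP1, which encodes the secreted phosphoprotein osteopontin, had levels at 4 h of 1.60 with E. tenella, 1.97 with E. maxima and 1.57 with E. acervulina. At 48 h its levels were -0.89, -0.87 and -0.96 in the same order. All 3 samples at 48 h lay far below all 3 at 4 h. SPP1 fell by 2.62 ± 0.19 on the log2 scale (SD, n = 3 species), which is 6.15-fold, with a limma adjusted p = 0.0011. The path over 18 h gave a change of -2.57 and the path over the unstimulated sample -2.67. For both paths the gene's mean over all arrays was first subtracted as a dye effect. Their closeness is therefore partly built in and is no separate check of the change. The 3 clones of SPP1 on the array, averaged here, changed by -2.79 to -2.37.

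LOC417536, whose gene record carries the chemokine names CCAH221 and CCLi9, had levels of 1.58, 1.41 and 0.75 at 4 h and of -0.998, -0.50 and -1.25 at 48 h, in the order of species given for SPP1, which holds throughout. It fell by 2.16 ± 0.37 (adjusted p = 0.024). OSMR, a receptor subunit for the cytokine oncostatin M, had levels of 1.52, 1.44 and 0.81 at 4 h and of -0.88, -0.55 and -1.12 at 48 h. It fell by 2.10 ± 0.25 (adjusted p = 0.017). In both genes the levels of the 2 times did not overlap. With E. acervulina the 18 h level of each, 1.07 for LOC417536 and 0.90 for OSMR, was still above the 4 h level, whereas with E. maxima it had reached -0.58 and -0.48. A second chemokine gene, LOC395551, recorded as CCL4 or MIP-1beta, had levels of 1.18, 1.10 and 0.42 at 4 h and of -0.44, -0.56 and -1.16 at 48 h. Its change of -1.62 ± 0.04 was much alike in the 3 species but did not pass the threshold (adjusted p = 0.070), at a fitted standard error of 0.47. A separate gene that carries the symbol CCL4 itself changed by only -0.36 and did not pass either (adjusted p = 0.16).

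**Figure D1:**
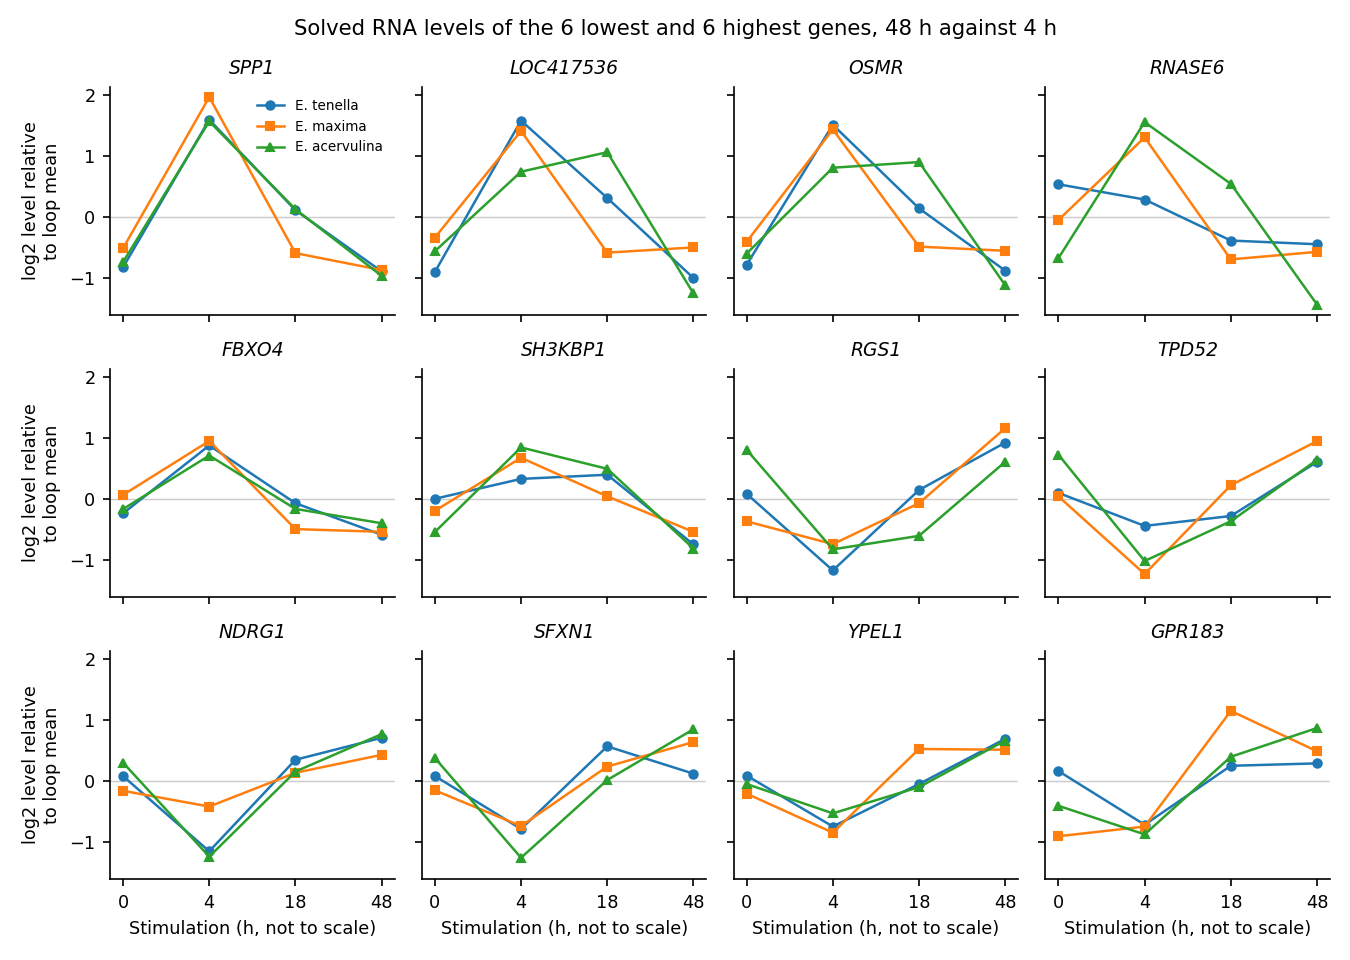
Solved RNA levels (log2, relative to the mean of the 4 RNA samples of a loop) at 0, 4, 18 and 48 h for the 6 genes with the lowest and the 6 with the highest 48 h minus 4 h change among those past the threshold. Each line is 1 species with 1 RNA sample per time, and the hours are evenly spaced on the axis. SPP1 stands at 1.57 to 1.97 at 4 h and at -0.96 to -0.87 at 48 h, and RGS1 at -1.17 to -0.74 and at 0.61 to 1.17.

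RNASE6, which encodes a secreted ribonuclease of leukocytes, had levels of 0.29, 1.31 and 1.56 at 4 h and of -0.44, -0.57 and -1.43 at 48 h. It fell by 1.87 ± 1.13 (adjusted p = 0.048), with the changes running from -0.73 with E. tenella to -2.99 with E. acervulina. NKRF, a repressor of NF-kB target genes in mammals, fell by 1.19 ± 0.36 (adjusted p = 0.021), and SH3KBP1, an adaptor in receptor internalisation, fell by 1.32 ± 0.30 (adjusted p = 0.016). NKRF had levels of 0.53 to 0.77 at 4 h and of -0.79 to -0.16 at 48 h, and SH3KBP1 of 0.33 to 0.85 and of -0.81 to -0.54.

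FBXO4, a substrate receptor of a ubiquitin ligase, had the second lowest p of the genes that fell. Its levels were 0.88, 0.95 and 0.72 at 4 h and -0.58, -0.54 and -0.39 at 48 h. It fell by 1.36 ± 0.21 (adjusted p = 0.0069). PCNA, the sliding clamp of DNA replication, had levels of 0.53, 0.31 and 0.53 at 4 h and of -0.82, -0.92 and -0.83 at 48 h. It fell by 1.31 ± 0.07 (adjusted p = 0.015), with changes of -1.34, -1.22 and -1.36. In unstimulated cells PCNA had levels of 0.41, 0.53 and -0.11, so from there to 4 h it was lower with E. maxima and higher with the other two species. In each loop the 48 h level of PCNA was the lowest of that loop. KCNMB1, a regulatory subunit of a calcium-activated potassium channel, fell by 1.07 ± 0.24 (adjusted p = 0.017), and DEGS1, which makes ceramide, fell by 1.01 ± 0.83 (adjusted p = 0.045). The fall of DEGS1 was small with E. tenella, at -0.19, and large with E. acervulina, at -1.84. Its p-value rests on the fitted standard error of 0.25 and not on the SD of 0.83. The same holds for every p-value given beside an SD over species, since the fitted error also draws on the unstimulated and 18 h levels.

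The genes with the largest rises from 4 to 48 h were RGS1, TPD52 and NDRG1. RGS1, which dampens signals of chemokine and other G protein coupled receptors, had levels of -1.17, -0.74 and -0.82 at 4 h and of 0.93, 1.17 and 0.61 at 48 h. The 2 times did not overlap, and RGS1 rose by 1.81 ± 0.34 (adjusted p = 0.018), or 3.51-fold. TPD52, a protein of vesicle traffic, had levels of -0.44, -1.23 and -1.01 at 4 h and of 0.61, 0.95 and 0.64 at 48 h, and rose by 1.63 ± 0.57 (adjusted p = 0.017). NDRG1, a gene known to be induced by low oxygen and differentiation, had levels of -1.15, -0.42 and -1.24 at 4 h and of 0.71, 0.43 and 0.77 at 48 h. NDRG1 rose by 1.57 ± 0.63 (adjusted p = 0.014), by 0.85 with E. maxima and by 1.86 and 2.01 with the other two species.

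SFXN1, which carries serine into mitochondria, had levels of -0.78, -0.74 and -1.26 at 4 h and of 0.12, 0.64 and 0.85 at 48 h and rose by 1.46 ± 0.61 (adjusted p = 0.018). YPEL1, of the yippee-like zinc binding family, had levels of -0.74, -0.84 and -0.53 at 4 h and of 0.70, 0.52 and 0.67 at 48 h and rose by 1.33 ± 0.12 (adjusted p = 0.014). A second family member, YPEL5, rose by 0.97 ± 0.19 (adjusted p = 0.029). In both yippee-like genes the 3 species changed by similar amounts, from 1.19 to 1.44 for YPEL1 and from 0.74 to 1.10 for YPEL5.

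GPR183, a receptor for oxysterols that guides the movement of immune cells, had levels of -0.71, -0.74 and -0.87 at 4 h and of 0.29, 0.49 and 0.87 at 48 h and rose by 1.33 ± 0.38 (adjusted p = 0.037). Its mean level in unstimulated cells, -0.38, was nearer that at 4 h. GPR146, another G protein coupled receptor, rose by 1.22 ± 0.70 (adjusted p = 0.035), NSMAF, an adaptor of the tumour necrosis factor receptor, by 1.28 ± 0.52 (adjusted p = 0.016), and HPGDS, which makes prostaglandin D2, by 1.27 ± 0.66 (adjusted p = 0.024). The transcription factor gene CREM, which acts in the cyclic AMP response, rose by 1.03 ± 0.23 (adjusted p = 0.017). MPST, an enzyme of cysteine breakdown that yields hydrogen sulfide, rose by 0.97 ± 0.25 (adjusted p = 0.017), and the cathepsin gene CTSV rose by 0.96 ± 0.49 (adjusted p = 0.047).

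**Figure D2:**
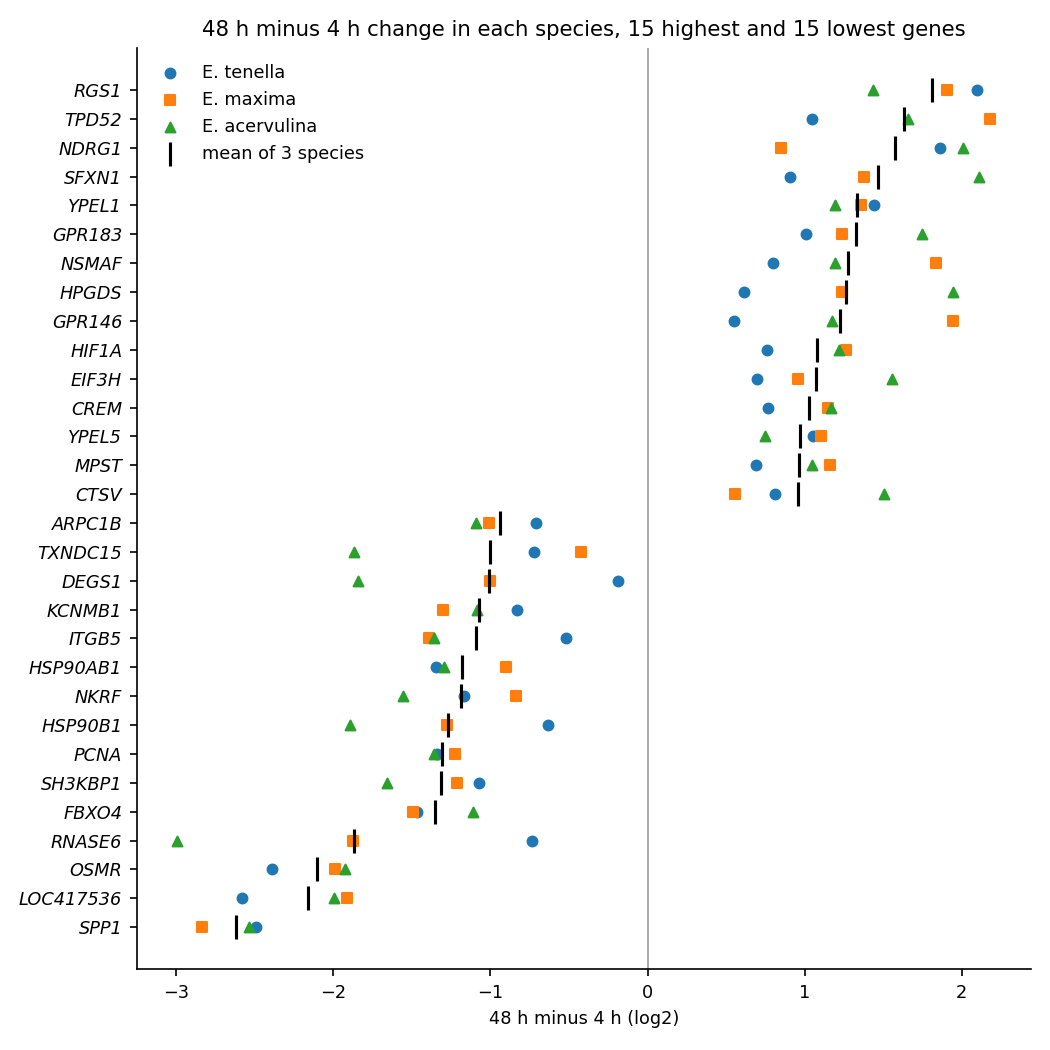
The 48 h minus 4 h change (log2) in each species (points) and its mean over the 3 species (black bars) for the 15 genes with the highest and the 15 with the lowest mean change among named genes past the threshold. All 3 points of each gene lie on the same side of 0. The points of PCNA span -1.36 to -1.22, whereas those of RNASE6 span -2.99 to -0.73.

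Over the whole table, 264 of 3700 features passed the threshold of 0.05 (limma with Benjamini-Hochberg adjustment), 122 higher and 142 lower at 48 h, where features are the 2238 named genes and 1462 rows without a name. That is 7.14% of features, 3.30% higher and 3.84% lower. Among the named genes 87 rose and 92 fell, together 179 or 8.00% of the 2238. The changes of these 179 ran from 1.27-fold to 6.15-fold with a median of 1.60-fold. Of the 179, 26 changed at least 2-fold, 12 up and 14 down. All 179 named genes had levels at 48 h that did not overlap those at 4 h, compared with 847, or 37.8%, of the named genes tested. The 179 were selected for a wide gap between these same levels, so this count is a description and lends the calls no weight. Among all named genes 988, or 44.1%, changed the same way in the 3 species. The calls rest on all 3 species being present: without E. tenella or without E. acervulina 0 features passed, with 850 and 588 at an unadjusted p under 0.05, and without E. maxima 11 passed, among them SPP1, NDRG1, YPEL1, NKRF and FBXO4. With all 3 species 979 features had an unadjusted p under 0.05. When limma was fitted to the 3 differences alone, without the other levels, 13 features passed, 8 of them named genes. All 179 named genes past the threshold changed the same way in the 3 species, so leaving out a species could not turn their direction.

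The levels at 18 h and in unstimulated cells placed the 179 genes on different time courses. The mean level at 18 h lay between those at 4 h and 48 h for 173 of them. A wide gap between those times, for which the genes were selected, makes this likely by itself, so the count is a description and is not set against all named genes. The 18 h level was nearer the 48 h level for 93, of which 46 had risen and 47 fallen, beside 1097 of all 2238 named genes. The unstimulated level was nearer the 48 h than the 4 h level for 118 of the 179 genes, 56 of the 87 that rose and 62 of the 92 that fell. Among all named genes this held for 1179, or 52.7%, and the count is likewise a description. SPP1 was one of the 118, with mean levels of -0.69 in unstimulated cells, 1.71 at 4 h, -0.12 at 18 h and -0.91 at 48 h. For 51 of the 87 genes that rose, the unstimulated level lay between those at 4 h and 48 h. In others that rose it lay above the 48 h level, such as LY96 (0.42 and 0.17) and LYZ (0.43 and 0.25). The same held for EXOG (0.46 and 0.25) and CD300LG (0.41 and 0.16). For the genes outside the 118 the unstimulated level was nearer 4 h. HIF1A, the oxygen-regulated transcription factor, had mean levels of -0.61 in unstimulated cells, -0.46 at 4 h, 0.46 at 18 h and 0.62 at 48 h. The mean levels of MPST, at -0.42, -0.28, 0.01 and 0.69, followed the same order. The E. acervulina loop departed from it, since both genes were lower at 4 h than in unstimulated cells. There HIF1A had levels of -0.34 in unstimulated cells and -0.74 at 4 h, and MPST of -0.35 and -0.46. PCNA did not, since its unstimulated level of 0.28 lay between those at 18 h, 0.12, and at 4 h, 0.46.

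Gene lists were described by counts and medians, beside a median change over all named genes of 0.01 and the 8.00% of them that passed. Of all named genes 1157 had a positive and 1081 a negative change. A share of called members near 8.00% is no result about a list. The lists and their members were chosen with earlier results of these data known. A share above 8.00% is therefore a description only and was not tested. Translation factors and tRNA synthetases had the highest median of the lists with at least 10 tested genes, 0.31 over 29 genes, of which 7 rose and none fell (24.1% called). EIF3H, EIF3E and EIF3L, subunits of the initiation complex eIF3, rose by 1.07 ± 0.44, 0.93 ± 0.43 and 0.50 (adjusted p = 0.017, 0.017 and 0.036). EIF3H had levels of -0.33, -0.49 and -0.84 at 4 h and of 0.37, 0.47 and 0.72 at 48 h. The elongation factor genes EEF2, EEF1A1 and EEF1B2 rose by 0.78, 0.73 and 0.78 (adjusted p = 0.024, 0.016 and 0.036), and EIF2S3, of the initiation factor that brings the first tRNA, rose by 0.68 (adjusted p = 0.043). The list was not uniform, since 11 of its 29 genes had negative changes, down to -0.64 for EIF3J, which did not pass. The list's median was 0.20 with E. tenella, 0.21 with E. maxima and 0.13 with E. acervulina. The 0.31 is the median of the mean changes and lies above all 3. In no single species was this list's median the highest of the lists with at least 10 tested genes.

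Among 53 genes for proteins of the cytosolic ribosome 2 passed (3.77%), RPL3 at 0.70 ± 0.35 and RPL12 at 0.64 ± 0.43 (adjusted p = 0.035 and 0.040), but 48 had a positive change. The median was 0.23, made up of 0.10 with E. tenella, 0.09 with E. maxima and 0.57 with E. acervulina. Leaving E. acervulina out brought it to 0.0858. RPL3 had levels of -0.30, -0.28 and -0.66 at 4 h and of 0.26, 0.17 and 0.44 at 48 h. Its change was largest with E. acervulina, at 1.10. Its mean level in unstimulated cells was 0.32, close to that at 48 h, 0.29.

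**Figure D3:**
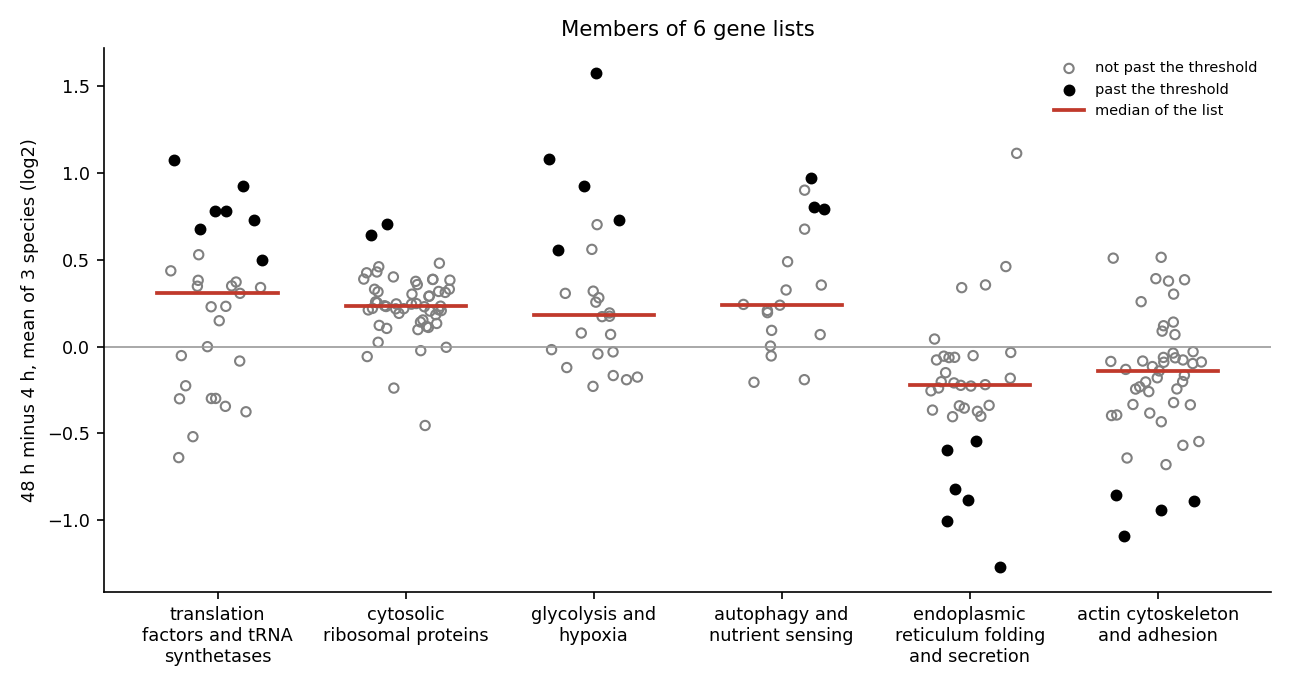
The 48 h minus 4 h change (log2, mean of 3 species) of every tested member of 6 gene lists; filled points passed the threshold, open points did not, and the red line is the list's median. Calls were higher only in the first 4 lists, 7, 2, 5 and 3 genes, and lower only in the last 2, 6 and 4 genes.

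Of 24 genes of glycolysis and the response to low oxygen, 5 rose and none fell (20.8% called), with a median of 0.18. The median was 0.2843 without E. tenella and 0.1138 without E. acervulina. Beside NDRG1 these were HIF1A at 1.08 ± 0.28 (adjusted p = 0.018), the glycolytic enzyme genes PFKP at 0.73 ± 0.30 and ENO1 at 0.92 ± 0.68 (adjusted p = 0.021 and 0.036), and BNIP3, a mitochondrial protein of mitophagy, at 0.56 ± 0.16 (adjusted p = 0.035). HIF1A had levels of -0.23, -0.41 and -0.74 at 4 h and of 0.53, 0.85 and 0.47 at 48 h. The 5 genes did not share one time course. ENO1 had a mean level of 0.76 in unstimulated cells, above its 0.20 at 48 h, whereas the mean level of HIF1A was lowest in unstimulated cells. With E. acervulina HIF1A was lowest at 4 h. LDHA, which makes lactate, changed by -0.93, -0.05 and 0.45 in the 3 species and did not pass.

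Autophagy and nutrient sensing genes had a median of 0.24 over 18 genes, of which 3 rose and none fell (16.7% called). WIPI2, which acts in the growth of the autophagosome, rose by 0.79 ± 0.20 (adjusted p = 0.020), and RICTOR, a subunit of the kinase complex mTORC2, rose by 0.80 ± 0.24 (adjusted p = 0.037). The third was YPEL5. With E. acervulina the median of the list was 0.00, with 9 of 18 genes positive, compared with 14 of 18 in each of the other two species.

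Of 33 genes of endoplasmic reticulum folding and secretion 6 fell and none rose (18.2% called), 28 had negative changes and the median was -0.22. HSP90B1, the chaperone of this compartment that belongs to the HSP90 family, had levels of 0.66, 0.78 and 1.22 at 4 h and of 0.02, -0.50 and -0.68 at 48 h. It fell by 1.27 ± 0.63 (adjusted p = 0.024), least with E. tenella, at -0.63. TXNDC15, a thioredoxin domain protein, changed by -1.004 ± 0.77 and CRELD2, a gene of the unfolded protein response, by -0.88 ± 0.21 (adjusted p = 0.041 and 0.017). SEC61A1, the channel through which new proteins enter, the disulfide isomerase gene PDIA6 and COPE, of the coat of transport vesicles, changed by -0.82, -0.59 and -0.55 (adjusted p = 0.024, 0.042 and 0.037). The member with the highest value was XBP1, which encodes a transcription factor active when unfolded proteins build up, at 1.11, which did not pass. Its change was 2.84 with E. maxima, against -0.04 and 0.53 with E. tenella and E. acervulina.

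Of 47 genes of the actin cytoskeleton and adhesion, 4 fell and none rose, a share of 8.51% that is near the background. In this list 36 changes were negative and the median was -0.14. ITGB5, an integrin subunit, had levels of 0.43, 0.99 and 0.74 at 4 h and of -0.09, -0.40 and -0.61 at 48 h, and fell by 1.09 ± 0.49 (adjusted p = 0.024). ARPC1B, of the complex that starts branched filaments, had levels of 0.23, 0.48 and 0.46 at 4 h and of -0.48, -0.54 and -0.63 at 48 h, and fell by 0.94 ± 0.20 (adjusted p = 0.017). ACTB, which encodes beta-actin, changed by -0.89 ± 0.27 (adjusted p = 0.045) and CORO1C, a coronin, by -0.85 ± 0.40 (adjusted p = 0.040). The 3 clones of CORO1C disagreed, from -1.63 to 0.04. It was the exception among the 46 genes past the threshold with more than 1 clone measured, since in the other 45 all clones changed in the direction of the gene. A gene's value is the average over these same clones, and the genes were selected for their change. The count is therefore a description and lends the calls no weight.

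**Figure D4:**
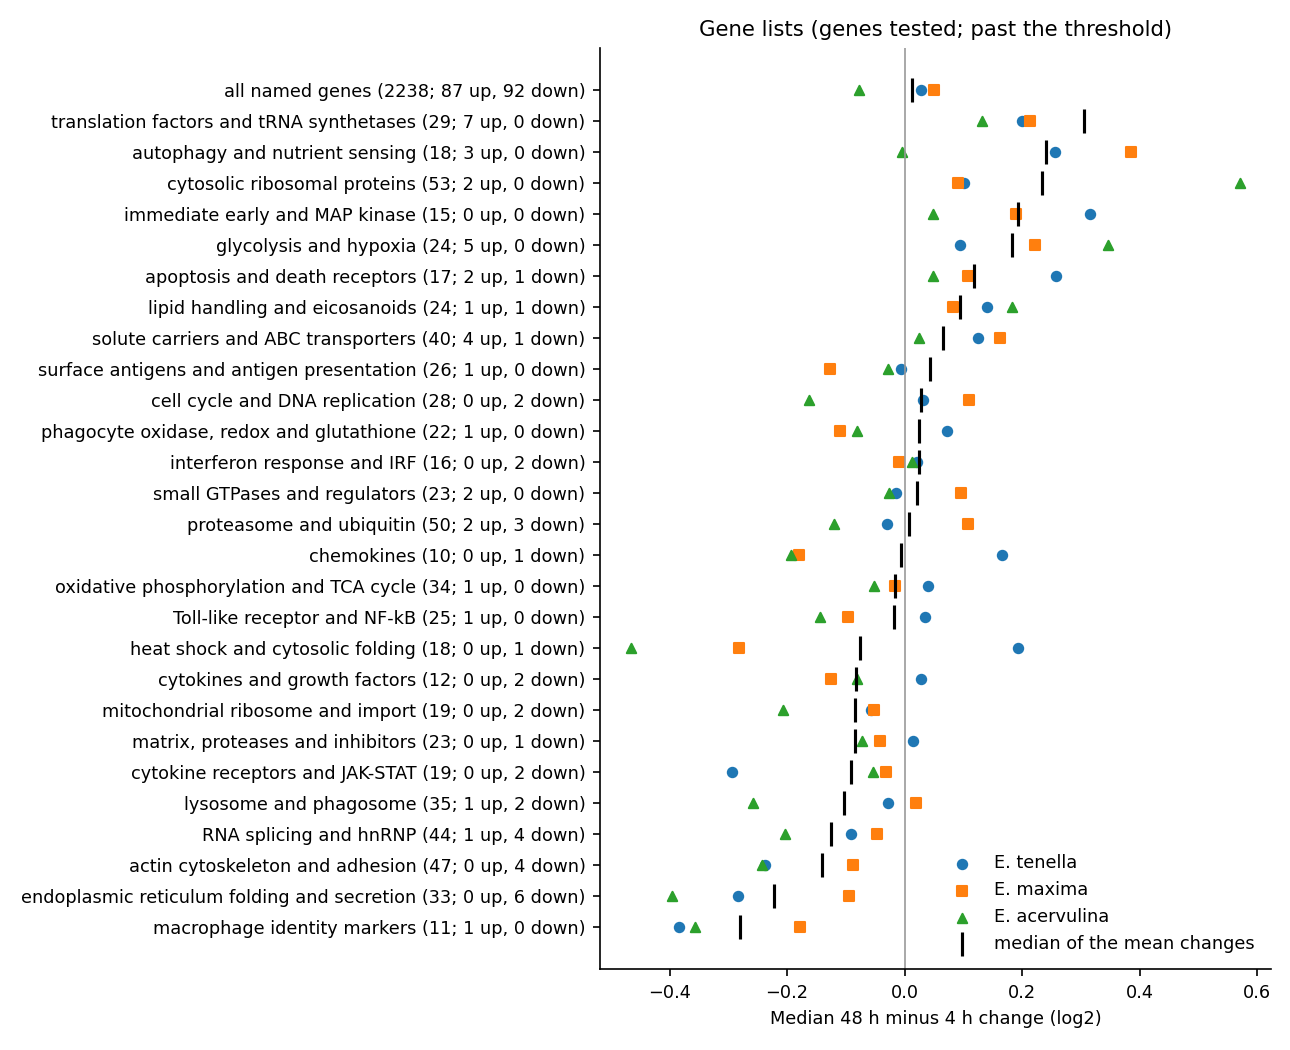
Median 48 h minus 4 h change (log2) of each gene list with at least 10 tested genes, in each species (points) and over the mean changes (black bars), with all named genes on top. Brackets give the genes tested and those past the threshold in each direction. Ribosomal proteins reach 0.57 with E. acervulina against 0.10 and 0.09 with the other two, and heat shock genes run from 0.19 with E. tenella to -0.47 with E. acervulina.

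The lists of chemokines, cytokines, cytokine receptors, Toll-like receptor and interferon genes had called shares between 4.00% and 16.7%, beside 8.00% of all named genes. Each share rests on only 1 or 2 called genes. Of 10 chemokine genes LOC417536 alone passed, and 5 of the 10 changes were positive. Of 12 cytokines and growth factors, TGFB3, a form of transforming growth factor beta, changed by -0.65 ± 0.21 (adjusted p = 0.032) and SPP1 fell, while IL1B at -0.45 and IL6 at 0.14 did not pass. Among 19 cytokine receptor and JAK-STAT genes OSMR fell, and so did TGFBR2, a receptor of transforming growth factor beta, by 0.58 ± 0.26 (adjusted p = 0.024). Of 25 genes of Toll-like receptor and NF-kB signalling 1 passed, LY96, which encodes the TLR4 partner MD-2. It had levels of -0.68, -0.59 and -0.34 at 4 h and of -0.06, 0.41 and 0.14 at 48 h and rose by 0.70 ± 0.27 (adjusted p = 0.041). Of 16 interferon response and IRF genes, IRF4, a transcription factor of immune cells, and IFIH1, the viral RNA sensor MDA5, fell by 0.70 ± 0.33 and 0.82 ± 0.13 (adjusted p = 0.024 and 0.049), and 11 of the 16 changes were positive.

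None of 15 immediate early and MAP kinase genes passed. The members with the lowest p were JUN, a subunit of the transcription factor AP-1, at 0.76 ± 0.13 (adjusted p = 0.074), and the phosphatase gene DUSP1 at 0.72 ± 0.77 (adjusted p = 0.12). JUN had levels of -0.41, -0.28 and -0.36 at 4 h and of 0.43, 0.34 and 0.45 at 48 h, without overlap. The median of the list was 0.19. In the small list of secreted defence proteins LYZ, which encodes lysozyme, rose by 0.74 ± 0.20 (adjusted p = 0.024), with levels of -0.39, -0.45 and -0.65 at 4 h and of 0.41, 0.07 and 0.26 at 48 h. The same list held RNASE6, which fell, so its 8 genes had 1 call in each direction.

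In the lysosome and phagosome list of 35 genes CTSV rose, and the protease gene CTSC and the proton pump gene ATP6V0C fell, by 0.88 ± 0.33 and 0.60 ± 0.38 (adjusted p = 0.024 and 0.049). The share of 8.57% is near the background, and 26 of its changes were negative. Of 44 genes of RNA splicing, 4 fell and 1 rose (11.4% called). SRSF7L, a splicing factor of the SR family, had levels of 0.45, 0.42 and 0.37 at 4 h and of -0.51, -0.36 and -0.39 at 48 h, and fell by 0.83 ± 0.11 (adjusted p = 0.0069). The RNA binding protein genes SYNCRIP and KHDRBS1 fell by 0.77 and 0.76 (adjusted p = 0.035 and 0.026), while RBM10 rose by 0.60 (adjusted p = 0.026). Of 28 cell cycle and replication genes 2 fell, a share of 7.14% that is also near the background, PCNA and CCND3, a cyclin of the G1 phase, which changed by -0.77 ± 0.38 (adjusted p = 0.024). Of 50 proteasome and ubiquitin genes 10% passed, of which 2 rose, UBE2J1 by 0.69 and FBXL5, an iron sensor, by 0.55 (adjusted p = 0.018 and 0.036), and 3 fell, among them FBXO4 and VCP, the latter by 0.56 (adjusted p = 0.024).

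Of 17 apoptosis and death receptor genes 17.6% passed. Of these 2 rose, TPD52, which was put in this list although its known role is in vesicle traffic, and EXOG, a mitochondrial nuclease, at 0.82 ± 0.53 (adjusted p = 0.030), and 1 fell, the initiator caspase gene CASP8, by 0.70 ± 0.28 (adjusted p = 0.018). Of 40 solute carriers and ABC transporters 4 rose and 1 fell (12.5% called). SLC4A7, a bicarbonate cotransporter, and SLCO4A1, an organic anion transporter, rose by 0.65 and 0.64, and SLC25A3, the mitochondrial phosphate carrier, by 0.40, whereas SLC35B4, a nucleotide sugar transporter, fell by 0.59 (adjusted p = 0.024, 0.024, 0.0496 and 0.032). Of 23 small GTPases and regulators RGS1 and RHOB rose, RHOB by 0.69 ± 0.40 (adjusted p = 0.036). Of 24 genes of lipid handling HPGDS rose and DEGS1 fell. The shares of these 2 lists, 8.70% and 8.33%, are near the background. In mitochondria, 2 of 19 genes of ribosome and import (10.5%) fell, MRPL2 by 0.39 and TOMM22 by 0.42 (adjusted p = 0.041 and 0.035). Of 34 genes of oxidative phosphorylation 1 passed (2.94%), ATP5J2, of the ATP synthase, at 0.37 (adjusted p = 0.045), and the median was -0.02. Among 26 surface antigen genes CD300LG passed at 0.44 (adjusted p = 0.048), in the matrix list of 23 only SPP1, and in the redox list of 22 only MPST, shares of 3.85%, 4.35% and 4.55% that lie below the background.

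Of the lists with at least 10 genes, heat shock and cytosolic folding had the widest range of medians between species. Of 18 genes only HSP90AB1, the constitutive cytosolic HSP90, passed. Its levels were 0.76, 0.47 and 0.59 at 4 h and -0.59, -0.43 and -0.71 at 48 h, and it fell by 1.18 ± 0.25 (adjusted p = 0.014). For the list as a whole 15 of 18 changes were positive with E. tenella, 7 with E. maxima and 3 with E. acervulina. The medians were 0.19, -0.28 and -0.47.

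HSPA2, listed in its gene record as HSP70, an inducible chaperone, had levels of -1.12, 1.74 and 1.07 at 4 h and of 2.57, -0.58 and 0.62 at 48 h. The 2 times overlapped, and the change was 3.69 with E. tenella, -2.32 with E. maxima and -0.46 with E. acervulina. HSP90AA1, the inducible cytosolic HSP90, changed by 2.15, -1.07 and -0.66, so the 2 cytosolic HSP90 genes had the same sign in the E. maxima and E. acervulina loops and opposite signs with E. tenella. BAG3, a co-chaperone of HSP70, changed by 1.55, -1.92 and -0.39. HMOX1, the heme oxygenase induced by oxidative stress, had levels of -0.06, 2.07 and 1.05 at 4 h and of 0.96, -1.07 and -0.52 at 48 h, with changes of 1.02, -3.14 and -1.57. The chemokine gene IL8L1, an interleukin 8 relative, changed by 1.30, -1.89 and -1.03, and CLIC4, an intracellular chloride channel protein, by -0.90, 1.53 and -2.37. These 6 genes had the widest range of change between species, and none passed over the 3 species together.

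At least 2-fold changes of opposite sign with E. tenella and E. maxima were found for 7 of the 2238 named genes. These were HSPA2, HSP90AA1, HSPA8, BAG3, HMOX1, TXNRD1 and IL8L1, and each was positive with E. tenella. Only this pair of species was counted, and genes also reversed in other pairs. CLIC4 changed by 1.53 with E. maxima and -2.37 with E. acervulina, and ERP29 by -1.08 with E. tenella and 1.93 with E. acervulina. HSPA8, the constitutive HSP70 relative, changed by 1.68, -1.41 and -0.79 and TXNRD1, thioredoxin reductase, by 1.36, -1.62 and -1.21. GCLM, of glutathione synthesis, changed by 0.65, -1.99 and -1.43. With 1 RNA sample per species and time a difference between species has no biological replicate. Against the error of the arrays, in a limma fit with 2 residual degrees of freedom, the change differed between species for 6 features, 5 of them named: HSPA2 (adjusted p = 0.018) and HMOX1, HSP90AA1, IL8L1 and HSPA8 (adjusted p = 0.026 each). This compares single RNA samples with the error of the arrays, not species as conditions.

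**Figure D5:**
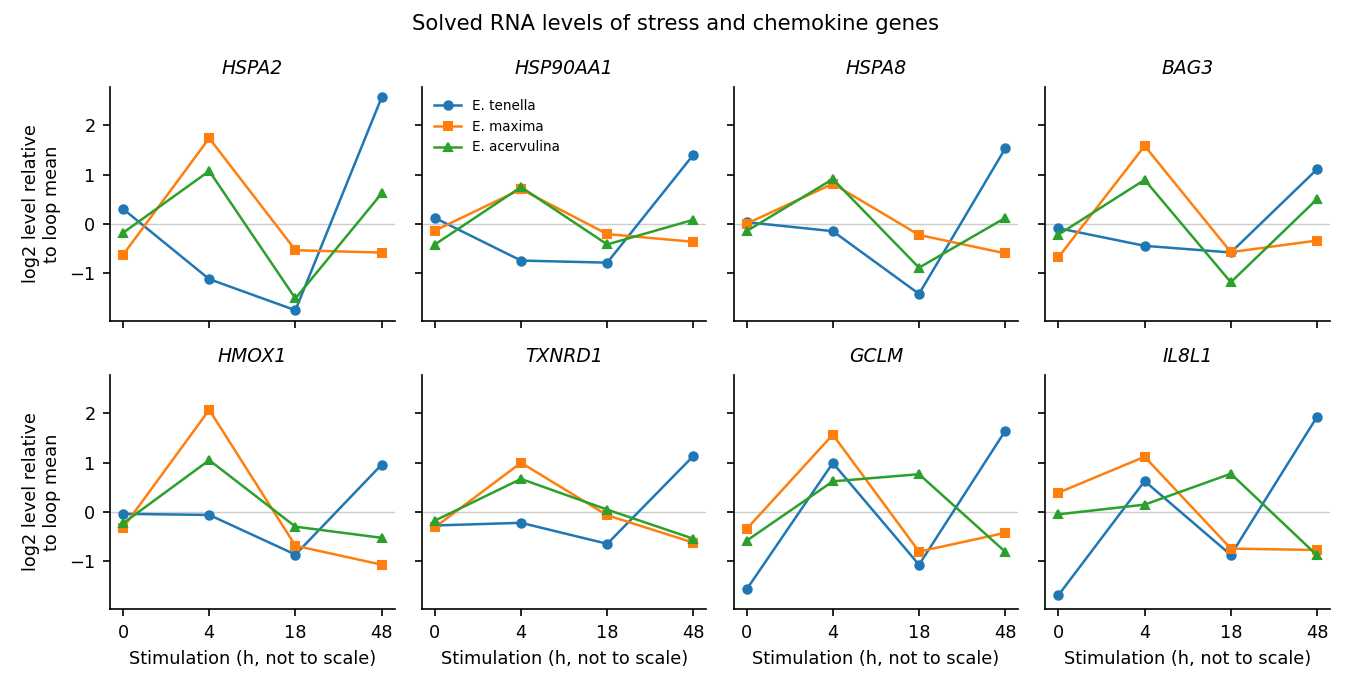
Solved RNA levels (log2, relative to the mean of the 4 RNA samples of a loop) at 0, 4, 18 and 48 h of 8 stress and chemokine genes, 1 line per species with 1 RNA sample per time, the hours evenly spaced on the axis. With E. tenella each gene is highest at 48 h, HSPA2 at 2.57, whereas with E. maxima each is highest at 4 h, HSPA2 at 1.74.

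In the same fit to arrays, 172 of the 3700 features passed the threshold between 4 and 48 h with E. tenella, 111 with E. maxima and 615 with E. acervulina. Of these 76, 72 and 167 changed at least 2-fold. Each count sets single RNA samples against the error of the arrays, without a biological replicate. The counts therefore cannot rank the species by strength of response. The spread of the change over all features was similar, with an SD of 0.47, 0.48 and 0.52.

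The cell type could be checked only in part, since ratios carry no absolute level. Of the macrophage markers 11 had values on all arrays, and LYZ, which rose, was the 1 that passed. Their median change was -0.28, with 7 negative and 4 positive. The positive ones were LYZ at 0.74, CTSS at 0.25, CD83 at 0.21 and CD74 at 0.07. The negative ones included CSF1R, the receptor of macrophage colony stimulating factor, at -0.87, CYBB, the phagocyte oxidase subunit, at -0.71 and LAPTM5 at -0.62 (adjusted p = 0.060, 0.056 and 0.055). All 3 were negative in each species. None of the tested markers of other cells passed: 3 of lymphocytes, with CD3D at -1.05 ± 0.91 (adjusted p = 0.13) and CD28 at -0.02, 2 of erythroid cells, HBA1 at 0.05 and HBBA at -0.03, and 2 of fibroblasts and epithelium, FN1 at -0.43 and CDH1 at -0.31. Whether a change in cell composition had a part in the results was not tested, and fewer cells of a type and less RNA per cell cannot be told apart.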

How the data were processed

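Per the labels, polyA RNA of HTC cells was labelled with both dyes and hybridised in loops. The authors deposited a log ratio per spot and array, read here as log2. For its base, background correction, normalization and numerator the sources used here give nothing. Of 14718 rows, 9066 had a single symbol in the platform annotation, 3 several and 5649 none, and 8976 annotated rows matched a gene record of assembly GRCg7b. Rows of one symbol were averaged. Loops were solved by least squares without further centring, since array medians lay between -0.04 and 0.12. The 12 levels were fitted with limma 3.58.1 (R 4.3.3), blocking on species, time being the factor, 6 residual degrees of freedom, two-sided p-values and Benjamini-Hochberg adjustment over 3700 features. The number of arrays limits the precision. Named genes were the 15 highest and 15 lowest past the threshold, up to 4 called members per list, or the 2 with the lowest p where none passed, and the 6 with the widest range between species. Genes outside this rule (LOC395551, the further members of lists and HSPA8, TXNRD1, GCLM, XBP1 and the like) were chosen after their values were seen. The 31 lists and all members were chosen with earlier results of these data known, and list names were matched by symbol or synonym, which in a few cases gave a close relative. Alternatives covered centring, scaling, missing arrays, other fits, row medians and leaving out a species.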

Additional observations from a re-analysis of the deposited data

Results flagged for a closer look

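The 48 h minus 4 h change differed between species, against array error only, for 4 of the genes named by rule. The range between the highest and the lowest species was 6.01 on the log2 scale for HSPA2, 4.16 for HMOX1, 3.22 for HSP90AA1 and 3.19 for IL8L1 (limma on the 12 arrays with Benjamini-Hochberg adjustment, adjusted p = 0.018 for HSPA2 and 0.026 for the others). In all 4 the change was positive with E. tenella and negative with E. maxima and E. acervulina, and each change rests on 1 RNA sample per species and time. HSPA2 changed by -1.39 without E. tenella, compared with 0.30 over the 3 species.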

How the results depend on the processing

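The 264 features past the threshold became 154 of 6825 when a missing array per loop was allowed, and 13 when limma was fitted to the 3 differences between 48 h and 4 h alone. Leaving out a species gave 0 to 11. In 2 alternatives chosen after seeing the data the path over the 18 h arrays alone gave 6 features, with SPP1, LOC417536, LOC395551 and OSMR, and the path over the unstimulated arrays alone gave 2, SPP1 and OSMR. Both paths were taken after a dye effect, the gene's mean over all arrays, had been subtracted, so neither is independent of the other arrays. With each array centred on its median 262 features passed, with arrays scaled to equal spread 292, with a limma fit to the arrays 305, with the median of a gene's rows 256 and, added after seeing the data, with unnamed spots of one clone averaged 288. All 179 named genes past the threshold kept their direction under each of these settings, but for several settings that was fixed in advance. The 3 differences alone, the missing arrays and the averaged unnamed spots left the change of these genes as it was. All 179 had changed the same way in the 3 species, so leaving out a species could not turn the direction. Of the 179 genes, 166 still passed after centring, 171 after scaling, 170 in the fit to the arrays and 156 with row medians. Leaving out a species shifted a list's median by more than the SD of its medians in the 3 species for 7 lists. The lowest and highest medians without a species were -0.0058 and 0.0436 for interferon response and IRF, 0.2187 and 0.2765 for translation factors, -0.0401 and 0.1102 for surface antigens, and -0.0186 and 0.0926 for small GTPases. They were -0.1319 and 0.0342 for Toll-like receptor and NF-kB, -0.1027 and 0.0448 for redox and -0.4159 and 0.0692 for heat shock genes, where each lowest value was that without E. tenella. For glycolysis and ribosomal protein genes, part of the medians without 1 species is given with these lists. The others were 0.191 for glycolysis without E. maxima, and for ribosomal proteins 0.3337 without E. tenella and 0.3213 without E. maxima. The cause was not tested. No paired analysis beyond the species block was possible because the labels number no replicates within a group. The number of arrays, with 2 residual degrees of freedom for array error, limits what can be said of single species.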
